A study of Mus musculus with 12 samples.

Results

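Mouse spermatogonial stem cells, the self-renewing cells that maintain sperm production, were compared with the cells sorted as induced spermatocytes after a 6-day induction in culture. The comparison took the 2 libraries titled as induced spermatocytes and the 2 libraries of stem cells that received no treatment, 4 of the 12 libraries in the series. The 22549 gene symbols of each deposited table were reduced to the 12588 whose mean over these 4 libraries was at least 1 FPKM (mapped fragments scaled for transcript length and for the depth of the library). All libraries came from wild-type male mice of the DBA/C57 F1 cross, aged 5 to 7 days, with testis as the tissue. The stem cells of the induction carried GFP and were placed on pup Sertoli cells whose division had been stopped with mitomycin. On day 6 the GFP-positive, c-KIT-negative cells were collected by flow sorting as induced spermatocytes. On day 3 the GFP-positive, c-KIT-positive cells had been collected as induced differentiating spermatogonia, whose 2 libraries entered the estimate of the spread and are quoted as the stage between. The series title names retinoic acid as the inducer, whereas its dose in the induction, the origin of the GFP line and the substrate of the untreated stem cells are not stated in the labels.

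Entry into meiosis turns a dividing spermatogonium into a spermatocyte. Retinoic acid induces Stra8, whose product switches on a large set of meiotic genes, and the stem cell programme that depends on the growth factor GDNF is shut down. In the first stages of meiotic prophase the cohesin complexes of mitosis are joined by meiotic ones, the chromosomes form an axis, programmed double-strand breaks are made, and the breaks are repaired by strand exchange with the partner chromosome while the synaptonemal complex zips the partners together. Genes of the later pachytene stage, and those of the haploid spermatid, are normally used only after that.

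The summed FPKM of the 6 induction libraries lay between 459580 and 529583, and 11872 to 12510 genes reached 1 FPKM in each. The spacing of the lowest values put the relative depth of the other 5 libraries at 84.1% to 99.3% of that of stem cell replicate 1, and the absolute depth is unknown. The replicates correlated at r = 0.986 for stem cells and 0.965 for induced spermatocytes across genes, which are not independent. The 2 stem cell libraries differed more than 2-fold in 233 tested genes and the 2 induced spermatocyte libraries in 498. The series' design text calls its replicates biological without saying whether they came from separate animals or cultures. Values below are given for replicate 1 and then replicate 2.

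Many tested genes differed between the groups. Limma, a linear model that shares information on variance across genes, was fitted to log2(FPKM + 1), and a gene is called where its Benjamini-Hochberg adjusted p over all 12588 genes is under 0.05. By that rule 6494 genes were called, 51.6% of those tested, with 3311 (26.3%) higher and 3183 (25.3%) lower in induced spermatocytes. Of the called genes, 3215 differed at least 2-fold, 2047 of them higher and 1168 lower. The count called was 3538 without stem cell replicate 1 and 3898 without stem cell replicate 2. These shares are the background against which each list below is read. Of the tested genes, 813 passed the filter only through the induced libraries and 360 only through the stem cells, so that their direction was largely fixed. Libraries were also left out 1 at a time, and values that moved by over 1.5 times are given beside their list. The median change over all tested genes was -0.034 on the log2(FPKM + 1) scale, the scale of every log2 change below, which understates the change of genes with low levels. The lists describe bulk RNA, in which fewer cells of a type and less RNA per cell cannot be told apart.

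Among genes that averaged 5 FPKM or more and whose groups did not overlap, and with small RNA genes and unnamed gene models left out, the 12 largest rises held 3 genes of the Sertoli cell list (Clu, Inha and Aard), Acta2 of the peritubular list and no gene of the meiotic lists. Clu, which encodes the secreted chaperone clusterin, read 1.57 and 1.81 FPKM in stem cells and 1212 and 2111 FPKM in induced spermatocytes (log2 change of 9.22, SE 0.44, adjusted p = 8.08e-05). The retinaldehyde dehydrogenase gene Aldh1a1 went from 0.702 and 0.569 FPKM to 785 and 841 FPKM (log2 change of 8.96, SE 0.24, adjusted p = 1.33e-05). The others were Gstm2, Cyr61, Inha, Ctgf, Aard, Sfrp4, Fosb, Akr1cl, Prss35 and Acta2, with log2 changes between 7.00 and 8.68. Of the 12, all except Clu, Gstm2 and Cyr61 averaged under 1 FPKM in stem cells. Those under 1 FPKM passed the filter only through the induced libraries, so that their direction was largely fixed. The largest fall was that of Rps27, a ribosomal protein gene with processed copies that can share its reads, so that its value of 188 and 213 FPKM against 3.91 and 6.40 FPKM is uncertain. The next 11 falls, among them the stem cell regulators Lhx1, Bcl6b, Ret and Gfra1, were those of Barhl2, Lhx1, Nxph4, Bcl6b, En1, Tcl1, Plvap, Nefm, Crmp1, Ret and Gfra1 with log2 changes from -4.33 to -3.78. Barhl2, Nxph4, En1, Plvap and Crmp1 passed the filter only through the stem cells, so that their direction was largely fixed too. Under 0.5 FPKM in both stem cell libraries and at 5 FPKM or more in both induced spermatocyte libraries were 98 genes, with the same kinds left out, and in the opposite direction 1 gene, Prl2c3. The highest of the 98 were Aard, Sfrp4, Akr1cl, Prss35, Cst12, Stra6, Gata4, Amhr2, Gdf15 and Cldn11. Calls ended without stem cell replicate 1 for Bcl6b, Nefm and Gfra1 (adjusted p between 0.0504 and 0.0816) and without stem cell replicate 2 for Nefm (adjusted p = 0.0552). Further calls ended with no filter on low values for Nefm (adjusted p = 0.0502).

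Genes of Sertoli cells, the supporting cells of the seminiferous tubule and the feeder layer of this culture, were high in the sorted libraries and low in the stem cells. The summed level of 20 listed Sertoli genes was 168 and 157 FPKM in stem cells, 777 and 1875 FPKM on day 3, and 2486 and 3379.6 FPKM in induced spermatocytes. Single genes made up much of these sums. Tjp1 supplied 97.2 and 87.6 FPKM of those of the stem cells, and Clu 1212 and 2111 FPKM of those of the induced spermatocytes. Of the 17 tested, 15 were called higher and 1 lower, where 26.3% of all tested genes were called higher and 25.3% lower, and the median log2 change of the list was 4.301. Of these 17, 9 passed the filter only through the induced libraries, so that their direction was largely fixed. Sertoli genes called lower numbered 2 without induced spermatocyte replicate 2. Inha, the inhibin alpha subunit, was at 0.573 and 0.610 FPKM in stem cells against 561 and 326 FPKM. The transcription factors Gata4 (0.289 and 0.172 against 64.6 and 61.7 FPKM) and Wt1 (1.61 and 0.796 against 47.6 and 43.8 FPKM) and the receptor gene Amhr2 (0.0589 and 0.0314 against 59.98 and 52.7 FPKM) rose with it. Gdnf and Kitl, ligands through which Sertoli cells act on spermatogonia, rose to 14.9 and 17.8 FPKM and 37.1 and 52.2 FPKM. Amh and Fshr, defining genes of the immature Sertoli cell and of its response to FSH, read 1.17 and 1.35 FPKM and 0.0564 and 0.152 FPKM in induced spermatocytes and did not pass the filter. The tight junction gene Tjp1 fell (97.2 and 87.6 to 46.4 and 55.0 FPKM).

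Genes of other somatic cells went both ways. Of 9 Leydig cell genes 4 passed the filter, 3 of them only through the induced libraries, so that their direction was largely fixed by the filter. All 4 were called higher. They were the cholesterol transporter gene Star (2.52 and 2.06 to 141 and 93.2 FPKM) and the regulator Nr5a1 (0.0560 and 0.0200 to 20.5 and 22.4 FPKM), with Cyp11a1 (0 and 0.0349 to 4.07 and 6.76 FPKM) and Hsd17b3 (0 and 0 to 4.51 and 2.85 FPKM) at lower levels. Cyp17a1, Hsd3b6, Insl3 and Lhcgr of the same list stayed under 0.5 FPKM in all 4 libraries. Hsd3b1, the other untested member, reached 1 FPKM in induced spermatocyte replicate 2 and did not pass the filter. Of 17 genes of peritubular myoid cells and fibroblasts, 10 rose and 2 fell. Only through the induced libraries 4 of the 17 passed the filter, and 1 only through the stem cells. Peritubular genes called higher numbered 5 without stem cell replicate 1 or induced spermatocyte replicate 2 and 6 without induced spermatocyte replicate 1, and those called lower numbered 0 without induced spermatocyte replicate 1, 1 without stem cell replicate 2 or induced spermatocyte replicate 2 and 4 without stem cell replicate 1. Acta2, smooth muscle actin, read 1.14 and 0.243 FPKM in stem cells and 284 and 152 FPKM in induced spermatocytes, and Sparc, a secreted matrix protein, 19.13 and 35.4 FPKM and 984 and 839.8 FPKM. The receptor genes Pdgfra (3.09 and 7.50 to 1.18 and 1.15 FPKM) and Pdgfrb (1.98 and 3.84 to 0.700 and 0.700 FPKM) fell. Of the macrophage and endothelial lists, 2 of 12 and 4 of 9 genes passed the filter and none rose. The defining genes Csf1r and Cdh5 read 0.149 and 0.0890 FPKM and 0.289 and 0.892 FPKM in induced spermatocytes. The sort selected GFP, and the part of these somatic transcripts in the germ cell results was not tested. Significance was lost without stem cell replicate 2 for Pdgfrb (adjusted p = 0.10), without induced spermatocyte replicate 1 for Pdgfra and Pdgfrb (adjusted p between 0.0518 and 0.0647) and without induced spermatocyte replicate 2 for Pdgfrb (adjusted p = 0.0545).

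**Figure D1:**
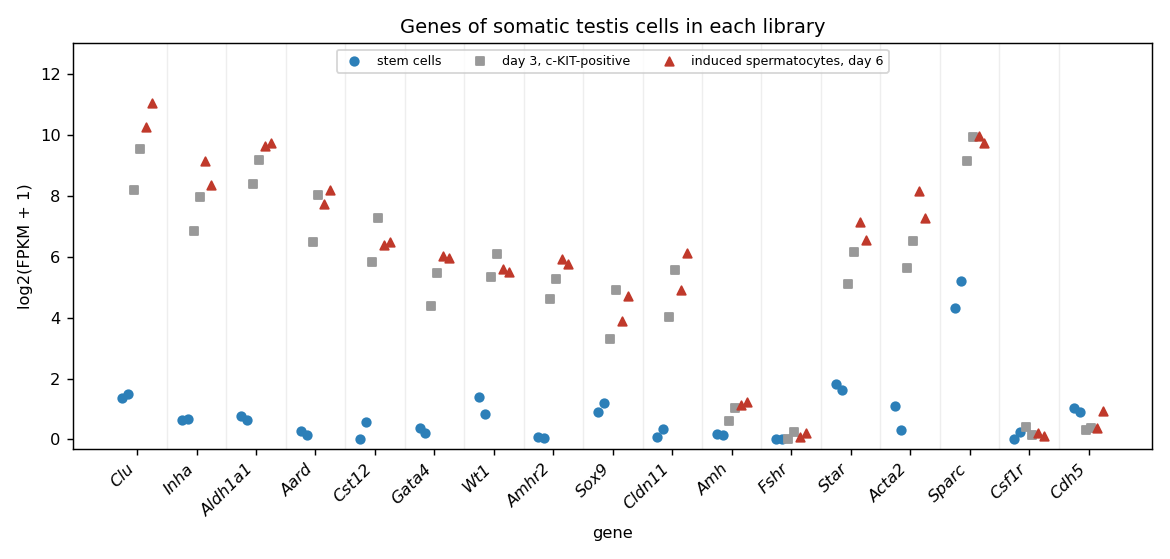
Levels of somatic cell genes as log2(FPKM + 1) in each library, with stem cells as blue circles, day-3 cells as grey squares and induced spermatocytes as red triangles. Sertoli genes from Clu to Cldn11, and Star, Acta2 and Sparc, were higher in both induced spermatocyte libraries than in both stem cell libraries, while Amh, Fshr, Csf1r and Cdh5 were low in all.

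Most genes of the stem cell programme fell. Of 35 stem cell and progenitor genes, 31 passed the filter, and 22 of these fell, 3 rose and 6 were not called. The median log2 change of the list was -1.79, against -0.034 over all tested genes. Stem cell genes called lower numbered 12 without either stem cell library. The stem cell median was -1.004 without induced spermatocyte replicate 1. Gfra1 and Ret, the 2 parts of the GDNF receptor, read 114 and 82.0 FPKM and 109.9 and 104 FPKM in stem cells. In induced spermatocytes Gfra1 was at 1.23 and 21.7 FPKM (log2 change of -3.78, SE 0.92, adjusted p = 0.0141) and Ret at 1.91 and 20.3 FPKM (log2 change of -3.78, SE 0.79, adjusted p = 0.00780). Both genes were lower in both induced libraries than in either stem cell library, and the second induced library kept far more of both than the first. The adjusted p passed 0.05 without stem cell replicate 1 for Gfra1 (adjusted p = 0.0635).

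The transcription factors that GDNF sustains fell with their receptor. Bcl6b went from 119.8 and 62.7 FPKM to 0.849 and 14.5 FPKM, Lhx1 from 38.9 and 33.0 FPKM to 0.0956 and 3.13 FPKM and Etv5 from 109 and 91.7 FPKM to 12.9 and 34.8 FPKM, with log2 changes of -4.04, -4.12 and -2.18. Zbtb16 (PLZF), a repressor needed for self-renewal, read 88.1 and 102 FPKM in stem cells and 3.76 and 32.2 FPKM after induction (log2 change of -2.93, SE 0.78, adjusted p = 0.0190). Nanos2, an RNA-binding repressor of differentiation, fell from 9.68 and 14.8 FPKM to 0.0494 and 4.62 FPKM and its relative Nanos3 from 35.0 and 75.3 FPKM to 1.63 and 15.7 FPKM. Foxc2 and Id4, which mark the most undifferentiated spermatogonia, fell by 3.39 and 2.24 on the log2 scale. The pluripotency-associated genes Pou5f1 (39.3 and 52.8 to 0.801 and 14.4 FPKM), Lin28a (80.9 and 65.9 to 4.49 and 28.1 FPKM) and Sall4 (30.6 and 28.8 to 3.64 and 9.53 FPKM) fell too. Uchl1, an abundant spermatogonial enzyme, fell only by 0.92, from 399.9 and 501 FPKM to 219.7 and 252 FPKM. The 3 genes that rose were Shisa6 (0.905 and 1.40 to 8.32 and 5.49 FPKM), Itgb1 (87.4 and 88.0 to 167 and 164 FPKM) and Gpr125 (32.4 and 35.5 to 56.2 and 48.7 FPKM), of which Itgb1 encodes a widely used integrin subunit. Taf4b, Itga6 and Thy1 were not called. The call was lost without stem cell replicate 1 for Bcl6b, Zbtb16, Nanos2, Pou5f1, Lin28a and Gpr125 (adjusted p between 0.0504 and 0.109), without stem cell replicate 2 for Zbtb16, Nanos2, Nanos3, Id4, Pou5f1, Lin28a, Uchl1 and Gpr125 (adjusted p between 0.0557 and 0.111), without day-3 replicate 1 for Nanos2 (adjusted p = 0.0526), without day-3 replicate 2 for Nanos2 (adjusted p = 0.0524) and without induced spermatocyte replicate 1 for Uchl1 and Gpr125 (adjusted p between 0.0605 and 0.0663). It also ended with a pseudocount of 0.1 for Nanos2 (adjusted p = 0.0673), with no filter on low values for Nanos2 and Pou5f1 (adjusted p 0.0603 to 0.0635) and when the 4 libraries were fitted alone for Nanos2 (adjusted p = 0.0524).

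**Figure D2:**
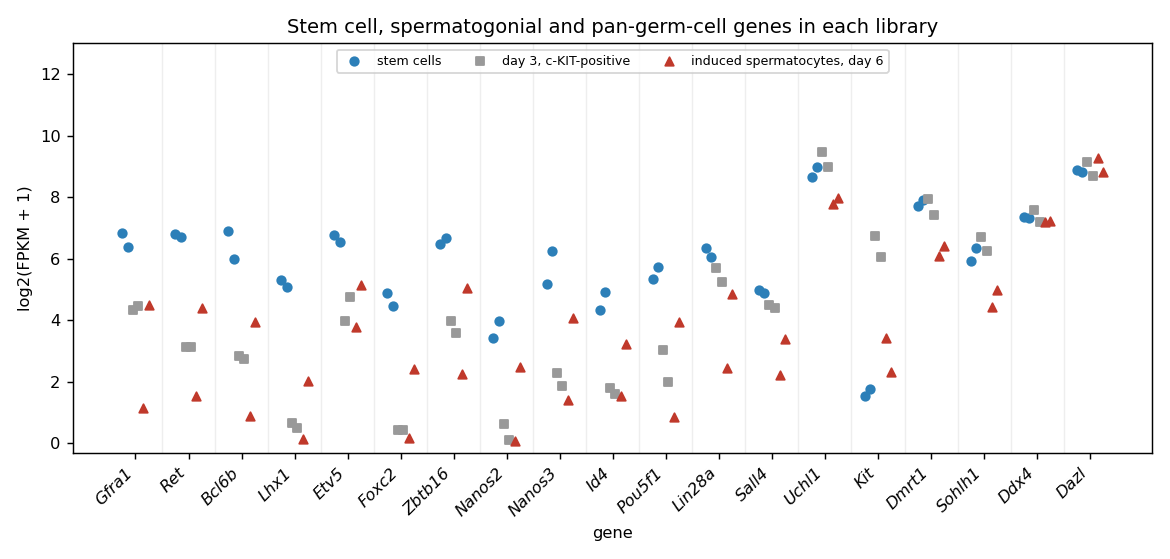
Levels of stem cell, spermatogonial and pan-germ-cell genes as log2(FPKM + 1) in each library, marked as in the plot of somatic genes. From Gfra1 to Uchl1 both induced spermatocyte libraries lay below both stem cell libraries with replicate 2 above replicate 1, Kit was highest on day 3, and Ddx4 and Dazl stayed close to their stem cell level.

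Markers of differentiating spermatogonia, the stage between, went both ways on day 6. Kit, the receptor used for the sort, read 1.88 and 2.42 FPKM in stem cells, 105 and 65.9 FPKM in the c-KIT-positive cells of day 3 and 9.75 and 4.04 FPKM in the c-KIT-negative cells of day 6 (log2 change of 1.23, SE 0.38, adjusted p = 0.0326). The day-6 level was above that of the stem cells and far below that of day 3. Of 16 genes listed for this stage, 4 were higher and 6 lower than in stem cells, beside 26.3% higher and 25.3% lower over all tested genes. Differentiation genes called higher numbered 2 without either stem cell library or induced spermatocyte replicate 1. Rhox13 rose from 19.5 and 19.5 FPKM to 64.7 and 29.9 FPKM, and the protease gene Prss50 from 0.824 and 0.964 FPKM to 60.4 and 48.1 FPKM (log2 change of 4.86, SE 0.19, adjusted p = 5.17e-05). Prss50 passed the filter only through the induced libraries, so that its direction was largely fixed. Dmrt1, which holds back meiosis in mouse spermatogonia, fell from 209.9 and 242 FPKM to 66.9 and 85.1 FPKM (log2 change of -1.56, SE 0.21, adjusted p = 0.00181). Sohlh1, a factor of spermatogonial differentiation, fell from 59.5 and 80.8 FPKM to 20.8 and 30.4 FPKM, and its partner Sohlh2 was not called (123 and 118 against 105 and 58.8 FPKM). Genes that germ cells use at all these stages were not called. Ddx4 (the VASA helicase) read 164 and 159 FPKM and 145 and 148 FPKM and Dazl 467 and 452 FPKM and 622 and 451 FPKM (adjusted p = 0.481 and 0.484). Calls ended without stem cell replicate 1 for Kit and Rhox13 (adjusted p between 0.104 and 0.129), without stem cell replicate 2 for Kit and Rhox13 (adjusted p between 0.0780 and 0.101) and without induced spermatocyte replicate 1 for Kit and Rhox13 (adjusted p between 0.0966 and 0.129). Further calls ended with no filter on low values for Kit and Rhox13 (adjusted p 0.0665 to 0.0692) and under quantile normalization for Kit (adjusted p = 0.0992).

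In the retinoid pathway, several uptake and synthesis genes rose while 2 well-known target genes were low on day 6. Of 24 listed genes 18 were tested, 9 were called higher and 3 lower. Only through the induced libraries 3 of the 18 passed the filter, and 1 only through the stem cells. Stra6, the retinol-uptake receptor, read 0 and 0.0214 FPKM in stem cells and 95.1 and 40.0 FPKM in induced spermatocytes (log2 change of 5.96, SE 0.42, adjusted p = 0.000318). The retinol dehydrogenase gene Rdh10 rose from 6.23 and 5.76 FPKM to 49.6 and 30.4 FPKM and Aldh1a2, which makes retinoic acid, from 5.13 and 5.61 FPKM to 31.9 and 27.7 FPKM. Aldh1a1 is also known from Sertoli cells, whose genes rose in the same libraries. The partner receptors Rxra (31.1 and 35.8 to 12.04 and 18.2 FPKM) and Rxrg (5.73 and 4.35 to 0.207 and 1.6 FPKM) fell, and the receptor genes Rara and Rarg were not called. Cyp26a1, which clears retinoic acid and is induced by it, read 0.619 and 0.452 FPKM in stem cells, 20.3 and 17.95 FPKM on day 3 and 0.386 and 0.347 FPKM on day 6. Rarb, another direct target, also peaked on day 3, at 0.0399 and 0.107, then 9.35 and 8.02, then 1.16 and 0.276 FPKM. On day 6 Cyp26a1 was below its stem cell level in both libraries and Rarb above its own. Neither gene passed the filter for a test. 

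Several genes that govern the decision to enter meiosis rose. Stra8 read 11.7 and 6.27 FPKM in stem cells, 1449.7 and 1191 FPKM on day 3 and 358 and 121 FPKM in induced spermatocytes (log2 change of 4.45, SE 0.49, adjusted p = 0.00110). Both day-6 libraries were above both stem cell libraries and below both day-3 libraries. Gm1564, the symbol the tables use for Meioc, encodes a partner of the helicase YTHDC2 that keeps germ cells in meiotic prophase. It rose from 4.34 and 2.97 FPKM to 87.0 and 53.1 FPKM (log2 change of 3.90, SE 0.26, adjusted p = 0.000289), with 17.8 and 15.97 FPKM on day 3. Ythdc2 itself rose from 8.09 and 7.39 FPKM to 26.3 and 16.7 FPKM (log2 change of 1.33, SE 0.22, adjusted p = 0.00370). Of 10 tested genes of this list 4 rose, with Bmp4 as the other rise, and 1 fell. The fall was that of the homeobox gene Msx2 (7.37 and 7.13 to 0.218 and 1.28 FPKM). The shares over all tested genes were 26.3% higher and 25.3% lower. Only through the induced libraries 2 of the 10 passed the filter, and 2, among them Msx2, only through the stem cells. The direction of these was largely fixed. Rbm46 and Zglp1, which act upstream of meiotic genes, were not called. 

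Most genes of the chromosome axis and synaptonemal complex rose. Of 12 genes, all tested, 8 rose and 2 fell, with a median log2 change of 1.25 against -0.034 over all genes. Sycp3, the protein of the lateral element, already had 86.4 and 88.3 FPKM in stem cells and reached 491 and 284 FPKM in induced spermatocytes (log2 change of 2.08, SE 0.28, adjusted p = 0.00186). Its partner Sycp2 rose from 17.3 and 19.16 FPKM to 121 and 75.2 FPKM (log2 change of 2.32, SE 0.23, adjusted p = 0.000758). Both were higher in both induced libraries, and replicate 1 had more than replicate 2. Hormad1, which marks unsynapsed axes, went from 18.2 and 18.03 FPKM to 191 and 117 FPKM (log2 change of 2.98, SE 0.23, adjusted p = 0.000390), and Hormad2 from 10.9 and 10.3 FPKM to 40.4 and 27.0 FPKM.

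In the central region, Tex12 (23.7 and 26.1 to 174 and 106 FPKM) and 4930447C04Rik, the symbol used for Six6os1 (28.3 and 24.0 to 176 and 115 FPKM), both rose by 2.40 on the log2 scale. The transverse filament gene Sycp1 rose less, from 88.7 and 89.7 FPKM to 209.8 and 141 FPKM (log2 change of 0.94, SE 0.21, adjusted p = 0.00997). Syce1 (60.6 and 53.7 against 88.2 and 61.8 FPKM) and Syce2 (121 and 111 against 166 and 134 FPKM) were already well expressed in stem cells and were not called (adjusted p = 0.197 and 0.194). Trip13, the ATPase that removes HORMA proteins from axes, fell from 49.7 and 43.6 FPKM to 20.1 and 23.9 FPKM (log2 change of -1.05, SE 0.16, adjusted p = 0.00273), and Fkbp6 fell by 0.57. Axis and synaptonemal genes called lower numbered 1 without either stem cell library or either induced spermatocyte library. The call was lost without stem cell replicate 1 for Sycp1 and Fkbp6 (adjusted p between 0.0583 and 0.154), without stem cell replicate 2 for Sycp1 and Fkbp6 (adjusted p between 0.0525 and 0.164), without induced spermatocyte replicate 1 for Fkbp6 (adjusted p = 0.0523) and without induced spermatocyte replicate 2 for Fkbp6 (adjusted p = 0.159). It also ended with no filter on low values for Fkbp6 (adjusted p = 0.0711) and without the variance trend for Fkbp6 (adjusted p = 0.0582).

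Most cohesin subunits used in meiosis rose while several of the mitotic form fell. Of 6 genes listed with meiotic cohesin 4 rose and none fell, beside 26.3% higher and 25.3% lower over all tested genes. Sgol2 and Meikin of this list are not cohesin subunits, and the rise not described below was in 1 of them. Only through the induced libraries 1 of the 6 passed the filter. Smc1b went from 77.6 and 80.4 FPKM to 272 and 192 FPKM (log2 change of 1.52, SE 0.19, adjusted p = 0.00159), the kleisin gene Rad21l from 14.6 and 10.5 FPKM to 33.9 and 28.5 FPKM (log2 change of 1.26, SE 0.20, adjusted p = 0.00290) and Stag3 from 81.4 and 79.2 FPKM to 223 and 115 FPKM (log2 change of 0.99, SE 0.29, adjusted p = 0.0261). Rec8, the other meiotic kleisin, read on day 3 96.0 and 74.5 FPKM and was not called between stem cells and day 6 (8.10 and 7.46 against 20.98 and 8.33 FPKM, adjusted p = 0.151). Of 12 genes of mitotic cohesin and its loaders and releasers 6 fell and 3 rose. The mitotic kleisin Rad21 fell from 189 and 169.9 FPKM to 68.7 and 115 FPKM (log2 change of -1.003, SE 0.24, adjusted p = 0.0128) and Smc3, shared by both forms, from 128 and 125 FPKM to 87.1 and 85.2 FPKM, whereas the loader Nipbl rose from 25.7 and 21.2 FPKM to 47.0 and 33.9 FPKM. Mitotic cohesin genes called higher numbered 0 without stem cell replicate 2 and 1 without stem cell replicate 1 or induced spermatocyte replicate 1, and those called lower numbered 1 without stem cell replicate 1 and 3 without stem cell replicate 2. Calls ended without stem cell replicate 1 for Stag3, Rad21, Smc3 and Nipbl (adjusted p between 0.0623 and 0.0951), without stem cell replicate 2 for Stag3, Smc3 and Nipbl (adjusted p between 0.0683 and 0.144) and without induced spermatocyte replicate 1 for Nipbl (adjusted p = 0.120). Further calls ended with no filter on low values for Stag3 (adjusted p = 0.0563).

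**Figure D3:**
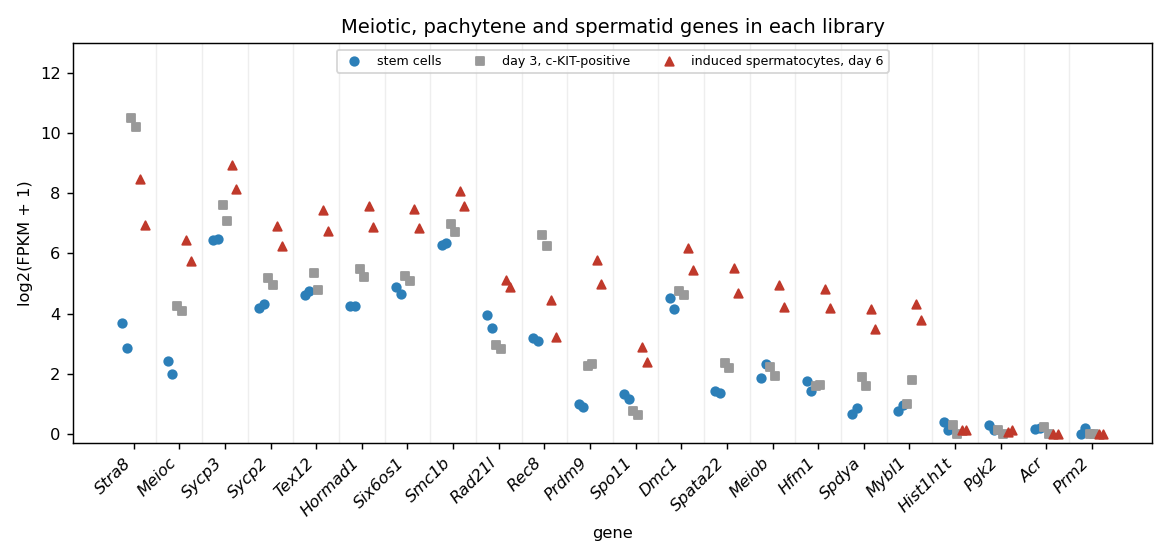
Levels of meiotic, pachytene and spermatid genes as log2(FPKM + 1) in each library, marked as in the plot of somatic genes, with Meioc, Six6os1 and Meiob standing for the table symbols Gm1564, 4930447C04Rik and 4930528F23Rik. From Sycp3 to Mybl1 induced spermatocytes lay above stem cells with replicate 1 above replicate 2, Stra8 and Rec8 were highest on day 3, and Hist1h1t, Pgk2, Acr and Prm2 were near 0 in all libraries.

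Promoters of genes that rose together are shown because regulators of meiotic entry are known to act through short DNA motifs. The E-box CACGTG is bound by MAX and MGA, which silence meiotic genes in stem cells, GCGGGA is an E2F motif, and CNCCTCAG is the motif reported for STRA8. The sequences run 5′ to 3′ on the gene's strand, over 300 bases that span the annotated start (RefSeq, GRCm38.p6), with matches to these 3 motifs on either strand in capitals. They are those of Sycp3 (chr10:88459337-88459636, plus strand) and Hormad1 (chr3:95559427-95559726, plus strand), each with 2 E-boxes and 1 E2F motif, Stag3 (chr5:138280259-138280558, plus strand), with 1 E-box and 1 E2F motif, and Hfm1 (chr5:106925841-106926140, minus strand), with 2 STRA8 motifs and 1 E2F motif.
Sycp3: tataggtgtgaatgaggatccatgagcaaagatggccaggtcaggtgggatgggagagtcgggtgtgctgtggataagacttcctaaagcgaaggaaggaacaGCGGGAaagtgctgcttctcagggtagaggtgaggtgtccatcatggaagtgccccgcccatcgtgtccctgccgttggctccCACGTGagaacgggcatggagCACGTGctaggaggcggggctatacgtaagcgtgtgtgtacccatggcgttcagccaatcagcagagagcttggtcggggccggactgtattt
Hormad1: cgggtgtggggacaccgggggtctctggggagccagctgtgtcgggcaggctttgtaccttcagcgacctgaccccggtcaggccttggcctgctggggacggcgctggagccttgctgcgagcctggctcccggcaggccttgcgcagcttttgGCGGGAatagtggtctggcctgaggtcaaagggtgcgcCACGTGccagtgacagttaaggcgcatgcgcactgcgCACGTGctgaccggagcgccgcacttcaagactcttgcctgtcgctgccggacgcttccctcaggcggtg
Stag3: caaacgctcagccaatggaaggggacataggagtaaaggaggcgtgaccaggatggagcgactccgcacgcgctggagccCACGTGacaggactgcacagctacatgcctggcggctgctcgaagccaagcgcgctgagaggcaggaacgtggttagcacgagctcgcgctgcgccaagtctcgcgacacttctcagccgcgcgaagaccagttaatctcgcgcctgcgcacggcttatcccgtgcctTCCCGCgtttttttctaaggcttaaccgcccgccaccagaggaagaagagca
Hfm1: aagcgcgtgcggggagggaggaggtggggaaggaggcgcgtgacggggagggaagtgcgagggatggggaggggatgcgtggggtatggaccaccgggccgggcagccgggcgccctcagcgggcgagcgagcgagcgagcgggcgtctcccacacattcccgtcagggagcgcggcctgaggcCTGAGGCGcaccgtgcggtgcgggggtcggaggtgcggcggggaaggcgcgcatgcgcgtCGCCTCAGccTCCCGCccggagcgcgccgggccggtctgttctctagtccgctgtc
The 4 promoters shown are examples that all hold motifs. Those of Stra8, Sycp2, Rad21l, Mei1 and Mei4, which were also called higher, held none of the 3 motifs. Of 39 meiotic genes called higher in the 7 lists from entry control to telomere attachment, 31 matched a RefSeq promoter. An E-box was present in 25.8% of these, an E2F motif in 54.8% and the STRA8 motif in 22.6%. In the 42 matched genes of the same lists that were tested and not called higher the shares were 19%, 59.5% and 16.7%. Over the promoters of all 27025 genes in the RefSeq table they were 8.09%, 22.1% and 9.12%. The cAMP response element TGACGTCA was present in 3.23% of the 31, against 4.76% of the 42, 3.65% of the tested genes and 2.03% of all, and the MYB motif CAACNG in 48.4%, against 23.8% of the 42, 37.3% of the tested genes and 38.3% of all. The shares are descriptions of letters in these windows. Over the promoters of the tested genes, which are mostly active ones, the E-box share was 12.3%, the E2F share 41.2% and the STRA8 motif share 11.3%.

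Most genes for making programmed breaks rose, Prdm9 most. Prdm9, the histone methyltransferase that places the breaks, read 0.975 and 0.857 FPKM in stem cells, 3.80 and 3.93 FPKM on day 3 and 54.5 and 30.5 FPKM in induced spermatocytes (log2 change of 4.45, SE 0.28, adjusted p = 0.000254). All 4 earlier libraries were under 4 FPKM and both day-6 libraries were far above. Prdm9 passed the filter only through the induced libraries, so that its direction was largely fixed. Spo11, the enzyme that cuts, rose from 1.52 and 1.20 FPKM to 6.44 and 4.27 FPKM (log2 change of 1.41, SE 0.24, adjusted p = 0.00386), and the break-formation genes Mei1 (2.58 and 1.86 to 8.14 and 5.27 FPKM) and Mei4 (2.80 and 1.95 to 5.79 and 5.00 FPKM) rose at similarly low levels. Zcwpw1, a reader of the PRDM9 mark, rose from 79.2 and 71.0 FPKM to 152 and 109 FPKM. In total 6 of 9 genes rose, 1 (Ewsr1) fell, and Hells, a chromatin partner of PRDM9, and 2410076I21Rik (Rec114) were not called. Break formation genes called higher numbered 3 without stem cell replicate 2 or induced spermatocyte replicate 1, and those called lower numbered 0 without either stem cell library. Significance was lost without stem cell replicate 1 for Zcwpw1 (adjusted p = 0.0615), without stem cell replicate 2 for Mei4 and Zcwpw1 (adjusted p between 0.0972 and 0.0994) and without induced spermatocyte replicate 1 for Mei4 and Zcwpw1 (adjusted p between 0.0590 and 0.0708). It also ended under quantile normalization for Mei4 (adjusted p = 0.0991).

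Repair genes went both ways. Of 28 strand exchange genes 9 rose, 7 fell and 12 were not called, with a median log2 change of 0.15. Over all tested genes 26.3% were called higher and 25.3% lower. Dmc1, the recombinase of meiosis, rose from 22.1 and 16.9 FPKM to 71.5 and 42.6 FPKM (log2 change of 1.47, SE 0.25, adjusted p = 0.00400). Spata22 (1.69 and 1.54 to 45.2 and 24.8 FPKM, log2 change of 3.73, SE 0.28, adjusted p = 0.000389) and 4930528F23Rik, the symbol used for its partner Meiob (2.64 and 3.98 to 30.1 and 17.5 FPKM, log2 change of 2.49, SE 0.30, adjusted p = 0.00135), rose strongly. Rpa1 and Rpa2, the general single-strand binding proteins that these resemble in role, fell from 89.3 and 92.7 FPKM to 40.6 and 42.9 FPKM and from 135 and 131 FPKM to 50.9 and 70.8 FPKM. 6030422M02Rik (Mcmdc2), which passed the filter only through the induced libraries, rose by 2.20. The checkpoint kinase gene Atr rose by 1.23, from 25.1 and 27.5 FPKM to 76.8 and 51.8 FPKM. Brca1 fell (29.1 and 25.0 to 14.6 and 14.9 FPKM), while the small rise of Brca2 (18.5 and 16.3 to 31.7 and 22.5 FPKM) had an adjusted p of 0.0343. Strand exchange genes called higher numbered 5 without stem cell replicate 2 or induced spermatocyte replicate 1. The strand exchange median was 0.069 with a filter at 5 FPKM and 0.050 without induced spermatocyte replicate 1. The adjusted p passed 0.05 without stem cell replicate 1 for Brca2 (adjusted p = 0.0965), without stem cell replicate 2 for Brca2 (adjusted p = 0.176), without day-3 replicate 1 for Brca2 (adjusted p = 0.0550), without day-3 replicate 2 for Brca2 (adjusted p = 0.0549) and without induced spermatocyte replicate 1 for Brca2 (adjusted p = 0.117). Further calls ended with no filter on low values for Brca2 (adjusted p = 0.0543) and when the 4 libraries were fitted alone for Brca2 (adjusted p = 0.0543).

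Among 14 crossover genes 4 rose and 4 fell, near the 26.3% called higher and 25.3% called lower over all tested genes. The helicase gene Hfm1 stood apart, with 2.39 and 1.67 FPKM in stem cells, 2.00 and 2.08 FPKM on day 3 and 27.1 and 17.03 FPKM on day 6 (log2 change of 2.90, SE 0.26, adjusted p = 0.000611). Ccnb1ip1 (HEI10), which marks crossover sites, rose from 14.6 and 11.2 FPKM to 28.0 and 18.4 FPKM and Tex11 from 44.8 and 47.5 FPKM to 86.0 and 58.4 FPKM. Msh4 (4.02 and 3.51 against 9.21 and 4.45 FPKM) and Msh5 (5.82 and 4.71 against 9.90 and 6.04 FPKM), which stabilise crossover intermediates, and the late factor Mlh3 were not called. Blm, Exo1, Eme1 and Prr19 fell, by 0.66, 0.82, 0.54 and 1.26. The median log2 change of the list was 0.060. Crossover genes called higher numbered 1 without either stem cell library or induced spermatocyte replicate 1 and 2 without either day-3 library, and those called lower numbered 1 without stem cell replicate 1 and 2 without stem cell replicate 2. The crossover median was 0.019 with a filter at 5 FPKM, -0.18 under quantile normalization, -0.084 without induced spermatocyte replicate 1 and 0.20 without induced spermatocyte replicate 2. The call was lost without stem cell replicate 1 for Ccnb1ip1, Tex11, Blm, Exo1 and Eme1 (adjusted p between 0.0609 and 0.191), without stem cell replicate 2 for Ccnb1ip1, Tex11, Blm and Eme1 (adjusted p between 0.0590 and 0.193), without day-3 replicate 1 for Tex11 (adjusted p = 0.0527), without day-3 replicate 2 for Tex11 (adjusted p = 0.0524), without induced spermatocyte replicate 1 for Ccnb1ip1 and Tex11 (adjusted p between 0.171 and 0.177) and without induced spermatocyte replicate 2 for Eme1 (adjusted p = 0.0833). It also ended with no filter on low values for Ccnb1ip1, Tex11 and Eme1 (adjusted p 0.0515 to 0.0743), under quantile normalization for Ccnb1ip1 (adjusted p = 0.0577), without the variance trend for Tex11 (adjusted p = 0.0624) and when the 4 libraries were fitted alone for Tex11 (adjusted p = 0.0528).

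Telomere attachment, which anchors chromosome ends to the nuclear envelope for pairing, had 3 strong rises. Spdya, an activator of CDK2 at telomeres, read 0.577 and 0.797 FPKM in stem cells and 16.6 and 10.3 FPKM in induced spermatocytes (log2 change of 3.06, SE 0.27, adjusted p = 0.000579). It passed the filter only through the induced libraries, so that its direction was largely fixed. Ccdc79 (Terb1) rose from 2.22 and 1.93 FPKM to 16.4 and 9.84 FPKM (log2 change of 2.16, SE 0.31, adjusted p = 0.00233) and its membrane partner 1700123I01Rik (Majin) from 1.75 and 1.44 FPKM to 17.00 and 9.76 FPKM (log2 change of 2.42, SE 0.27, adjusted p = 0.00112). Ccdc155 (Kash5) was also called higher. Terb2, of the same meiotic group, and the general factors Sun1, Sun2, Cdk2, Terf2 and Tinf2 were not called. The telomere protein gene Terf1 fell from 80.1 and 65.3 FPKM to 42.8 and 46.5 FPKM. In total 4 of 11 genes rose, 1 fell and 6 were not called. Of 11 genes of the sex body, the silenced X and Y domain of pachytene cells, 2 rose and 4 fell. Of the telomere attachment list 45.5% were called in either direction and of the sex body list 54.5%, near the 51.6% over all tested genes. H2afx (38.1 and 36.3 against 26.5 and 28.3 FPKM) and Mdc1 (29.9 and 29.4 against 57.4 and 34.9 FPKM), which spread that silencing, were not called. Telomere attachment genes called lower numbered 0 without stem cell replicate 1 or induced spermatocyte replicate 1. Sex body genes called higher numbered 1 without either stem cell library or either day-3 library or induced spermatocyte replicate 1, and those called lower numbered 1 without either stem cell library. Calls ended without stem cell replicate 1 for Terf1 (adjusted p = 0.111) and without induced spermatocyte replicate 1 for Terf1 (adjusted p = 0.0606).

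X-linked genes were called higher more often than lower. Of 531 tested X-linked genes 215 were called higher and 76 lower, where 26.3% of all tested genes were called higher and 25.3% lower. Of the 531, 62 passed the filter only through the induced libraries and 15 only through the stem cells, so that their direction was largely fixed. The X-linked median log2 change was 0.32, and under quantile normalization that median was 0.15 while the median of all tested genes was -0.13. Of 8 tested Y-linked genes 3 rose, Ddx3y most (8.88 and 7.93 to 42.2 and 36.1 FPKM). X-linked genes of Sertoli cells and germ cells cannot be told apart here. X-linked genes called lower numbered 22 without stem cell replicate 1 and 28 without stem cell replicate 2. The X-linked median was 0.102 with no filter on low values, 0.19 with a filter at 5 FPKM and 0.18 without induced spermatocyte replicate 1. Y-linked genes called higher numbered 1 without either stem cell library or induced spermatocyte replicate 1 and 5 without induced spermatocyte replicate 2. 

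Genes of the pachytene stage rose in part. Of 32 listed, 21 passed the filter, 3 of them only through the induced libraries, and 9 were called higher and 6 lower. The shares over all tested genes were 26.3% higher and 25.3% lower. Pachytene genes called lower numbered 1 without stem cell replicate 1 and 3 without stem cell replicate 2 or induced spermatocyte replicate 2. Mybl1, the master regulator of pachytene transcription, read 0.702 and 0.930 FPKM in stem cells, 0.998 and 2.44 FPKM on day 3 and 19.15 and 12.7 FPKM on day 6 (log2 change of 3.19, SE 0.32, adjusted p = 0.000847). Zfp541 (0.998 and 0.502 to 10.7 and 6.50 FPKM) and Mtl5 (1.67 and 1.66 to 16.2 and 9.23 FPKM) rose in the same way, and the germ cell surface gene Tex101 rose from 114 and 118 FPKM to 406 and 275 FPKM. The chaperone gene Hspa2 read similar levels on day 3 (21.5 and 21.1 FPKM) and on day 6, when it was called higher (21.1 and 17.97 FPKM, against 5.47 and 5.08 FPKM in stem cells). Tcfl5, a partner of MYBL1 in pachytene cells, fell from 51.4 and 56.1 FPKM to 20.8 and 22.4 FPKM (log2 change of -1.28, SE 0.16, adjusted p = 0.00146) and Piwil1, the pachytene PIWI gene, from 3.18 and 2.84 FPKM to 0.569 and 0.960 FPKM. The adjusted p passed 0.05 without stem cell replicate 1 for Piwil1 (adjusted p = 0.0528).

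Several listed genes of later spermatocytes were not seen at a level that could be tested. Hist1h1t, the testis linker histone, read 0.0864 and 0.0782 FPKM in induced spermatocytes, Pgk2 0.0439 and 0.0790 FPKM, Adam2 0.130 and 0.209 FPKM and Ccna1 0.268 and 0.201 FPKM, while Adam3, Adam18 and Acr were listed at 0 in both. Of 29 spermatid genes 9 passed the filter, 1 rose (Crem, 3.09 and 3.67 to 8.65 and 8.45 FPKM) and 3 fell. That was 44.4% of the 9 called in all, against 51.6% over all tested genes. Prm1, Prm2, Tnp2, Acrv1 and Odf1 were under 0.5 FPKM in both induced libraries. These late pachytene and protamine genes were at or near 0, while 9 other genes of the pachytene list were called higher. Spermatid genes called higher numbered 2 without induced spermatocyte replicate 2, and those called lower numbered 1 without either stem cell library or either day-3 library. 

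**Figure D4:**
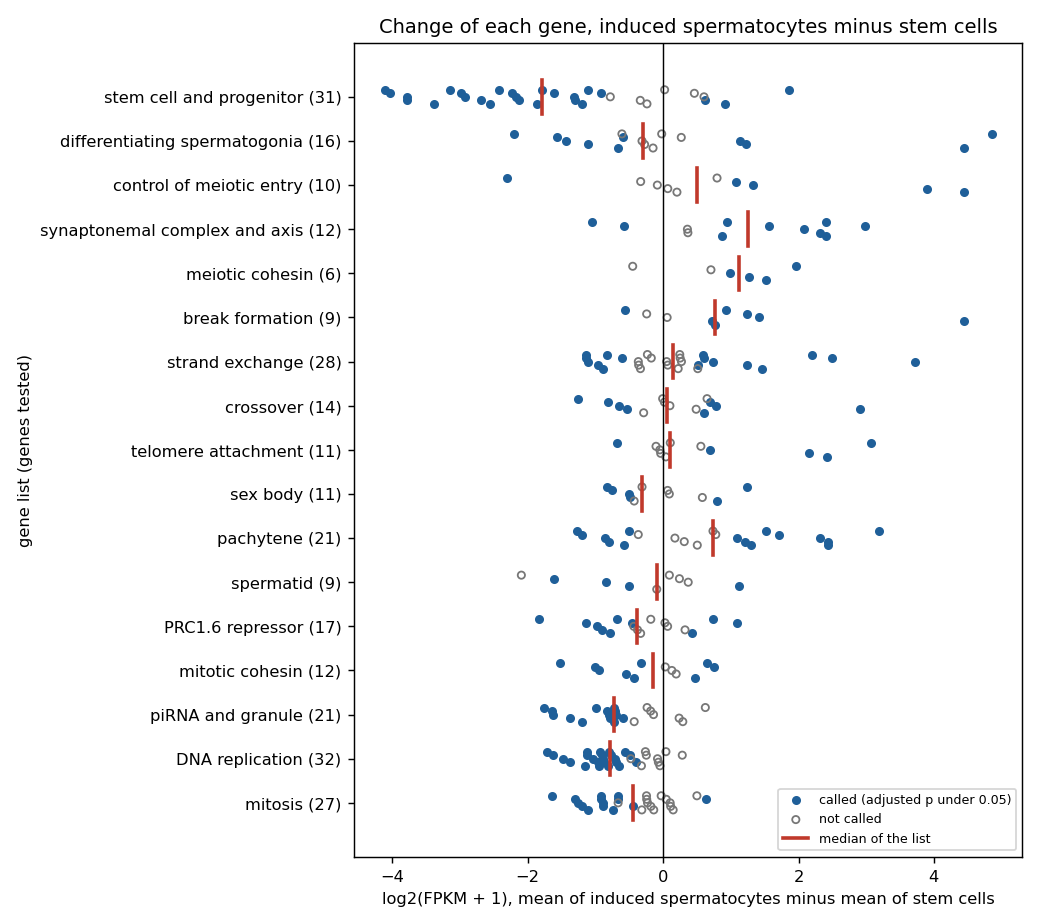
Log2 change of every tested gene in 17 germ cell and cell cycle lists, induced spermatocytes minus stem cells, with filled points for called genes, open points for the rest and a red bar at the median of each list. The stem cell list lies mostly below 0, the synaptonemal and meiotic cohesin lists mostly above, and the strand exchange and crossover lists on both sides.

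Several genes of the repressor complex that silences meiotic genes in stem cells fell. PRC1.6 is a Polycomb complex that contains MGA, MAX, E2F6, PCGF6 and L3MBTL2. E2f6 fell from 67.4 and 60.4 FPKM to 12.6 and 23.2 FPKM (log2 change of -1.84, SE 0.27, adjusted p = 0.00245), with 17.6 and 14.1 FPKM already on day 3. Pcgf6 fell from 35.5 and 34.4 FPKM to 15.7 and 25.2 FPKM and L3mbtl2 from 31.8 and 31.0 FPKM to 22.4 and 22.5 FPKM, with log2 changes of -0.78 and -0.47. Mga (32.9 and 28.4 against 33.7 and 28.8 FPKM) and Max (38.9 and 35.8 against 26.6 and 30.5 FPKM) were not called, with adjusted p of 0.890 and 0.0510. Tfdp1, the E2F partner, fell by 1.14 and the methyltransferase gene Ehmt2 by 0.90, while the subunit genes Yaf2, Ring1 and Rnf2 rose by 0.74, 1.09 and 0.42. In total 7 of 17 genes fell and 3 rose, beside 25.3% lower and 26.3% higher over all tested genes. PRC1.6 genes called higher numbered 1 without stem cell replicate 1, and those called lower numbered 4 without either stem cell library. Calls ended without stem cell replicate 1 for Pcgf6, L3mbtl2, Yaf2 and Rnf2 (adjusted p between 0.0912 and 0.155), without stem cell replicate 2 for Pcgf6, L3mbtl2 and Rnf2 (adjusted p between 0.0826 and 0.180) and without induced spermatocyte replicate 1 for L3mbtl2 and Rnf2 (adjusted p between 0.0527 and 0.123). Further calls ended without the variance trend for Rnf2 (adjusted p = 0.0629).

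Most genes of transposon defence through piRNAs fell. Of 21 tested genes of the piRNA pathway and germ granules 14 fell and none rose, with a median log2 change of -0.72. Tdrd1, a scaffold of the granules, fell from 54.9 and 49.8 FPKM to 12.6 and 20.5 FPKM (log2 change of -1.64, SE 0.23, adjusted p = 0.00196). Tdrd5 (46.2 and 42.6 to 8.59 and 21.4 FPKM), Tex19.1 (223 and 211 to 66.8 and 104 FPKM) and Piwil4 (8.60 and 4.19 to 0.425 and 2.02 FPKM) fell too, as did Mael, the most abundant member, from 259 and 256 FPKM to 149.8 and 162 FPKM. piRNA and granule genes called higher numbered 1 without induced spermatocyte replicate 2, and those called lower numbered 4 without stem cell replicate 1, 6 without stem cell replicate 2 and 8 without induced spermatocyte replicate 1. Of 19 other germ cell RNA-binding genes 6 fell, Igf2bp1 most (54.6 and 48.1 to 9.52 and 15.3 FPKM), and 2 rose, the meiotic regulator Boll (19.4 and 19.4 to 45.6 and 30.3 FPKM) and Ybx2 (4.39 and 4.11 to 12.95 and 11 FPKM). That was 42.1% of the 19 called in all, against 51.6% over all tested genes. RNA-binding genes called higher numbered 1 without either stem cell library and 4 without induced spermatocyte replicate 2, and those called lower numbered 3 without stem cell replicate 2. Significance was lost without stem cell replicate 1 for Tdrd5, Piwil4, Mael and Boll (adjusted p between 0.0570 and 0.0793), without stem cell replicate 2 for Mael and Boll (adjusted p between 0.0530 and 0.0709) and without induced spermatocyte replicate 1 for Piwil4 and Mael (adjusted p between 0.0530 and 0.0598).

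Most genes for DNA replication fell, as did many mitotic genes. Of 32 replication genes 23 fell and none rose, with a median log2 change of -0.78. The licensing factor gene Cdt1 fell from 66.3 and 59.3 FPKM to 14.6 and 22.9 FPKM (log2 change of -1.72, SE 0.22, adjusted p = 0.00162), the helicase subunit gene Mcm2 from 155 and 143 FPKM to 51.0 and 63.1 FPKM (log2 change of -1.38, SE 0.16, adjusted p = 0.00132) and the thymidine kinase gene Tk1 from 52.3 and 49.7 FPKM to 13.1 and 19.14 FPKM. Of 27 mitosis genes 13 fell, among them the kinase genes Aurkb (44.9 and 40.8 to 9.52 and 17.8 FPKM) and Aurka (37.9 and 34.1 to 12.8 and 17.9 FPKM) and the cyclin gene Ccnb1 (148 and 133 to 47.9 and 65.9 FPKM). Bub1 rose (49.9 and 45.5 to 85.9 and 64.6 FPKM), and Top2a, the most abundant member, was not called (135 and 124 against 159 and 129 FPKM). The G1 inhibitor Cdkn1a (p21) rose from 13.6 and 31.2 FPKM to 335 and 484 FPKM (log2 change of 4.22, SE 0.51, adjusted p = 0.00135). Ccne2, a cyclin that activates CDK2, rose from 5.32 and 4.13 FPKM to 33.5 and 22.04 FPKM, and E2f1 fell from 70.9 and 61.6 FPKM to 19.7 and 25.2 FPKM. Replication genes called lower numbered 14 without stem cell replicate 1. Mitosis genes called higher numbered 0 without either stem cell library or induced spermatocyte replicate 1 and 2 without induced spermatocyte replicate 2. The adjusted p passed 0.05 without stem cell replicate 1 for Bub1 (adjusted p = 0.0746), without stem cell replicate 2 for Bub1 (adjusted p = 0.118) and without induced spermatocyte replicate 1 for Bub1 (adjusted p = 0.0774).

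Both named genes that maintain DNA methylation fell. Uhrf1, which guides the maintenance enzyme, fell from 192 and 163 FPKM to 42.9 and 54.0 FPKM (log2 change of -1.86, SE 0.17, adjusted p = 0.000608), and the enzyme gene Dnmt1 from 164 and 148 FPKM to 69.1 and 65.1 FPKM (log2 change of -1.20, SE 0.13, adjusted p = 0.000947). Dnmt3b, a writer of new methylation, read 40.9 and 31.1 FPKM on day 3, and it was lower at 8.12 and 8.45 FPKM on day 6, below its 18.1 and 19.97 FPKM in stem cells. Tet2, which passed the filter only through the induced libraries, rose from 0.233 and 0.323 FPKM to 2.21 and 1.94 FPKM, and Hells was not called. Replication-dependent histone genes, which share near-identical copies and are therefore uncertain one by one, went both ways, with 10 of 37 higher and 8 lower. Over all tested genes 26.3% were called higher and 25.3% lower. Histone genes called higher numbered 6 without stem cell replicate 1, and those called lower numbered 4 without induced spermatocyte replicate 1 and 5 without either stem cell library. The call was lost without stem cell replicate 1 for Tet2 (adjusted p = 0.0600). It also ended under quantile normalization for Tet2 (adjusted p = 0.050).

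Most immediate early genes and targets of p53 rose, while some feedback genes of ERK signalling fell. Of 18 immediate early genes, which answer signals and handling within minutes, 15 rose and 2 fell, with a median log2 change of 2.85. Only through the induced libraries 3 of the 18 passed the filter. Fos went from 6.69 and 7.51 FPKM to 304 and 735 FPKM (log2 change of 5.87, SE 0.48, adjusted p = 0.000455), Jun from 3.13 and 5.63 FPKM to 97.6 and 440.3 FPKM and Fosb from 0.516 and 0.690 FPKM to 205 and 499.9 FPKM, with replicate 2 more than 2 times replicate 1 in each. Egr2 (35.1 and 26.4 to 2.33 and 13.1 FPKM) and Egr3 (15.01 and 11.4 to 1.21 and 1.99 FPKM) fell. Of 20 p53 targets 16 rose, among them Gdf15 (0.294 and 0.249 to 27.2 and 75.2 FPKM) and Eda2r (1.72 and 4.12 to 29.5 and 38.8 FPKM), whereas Pmaip1 fell (50.8 and 39.2 to 6.41 and 16.7 FPKM). Gdf15 passed the filter only through the induced libraries. Feedback genes of ERK signalling, which growth factors keep on in stem cells, included 4 that fell of 12, such as Spry4 (41.9 and 28.4 to 3.92 and 7.64 FPKM) and Etv4 (66.8 and 46.5 to 7.91 and 18.8 FPKM), and none that rose. Dusp6 was not called (96.3 and 85.9 against 91.9 and 158 FPKM). Immediate early genes called lower numbered 1 without either stem cell library. p53 target genes called higher numbered 10 without stem cell replicate 1. ERK feedback genes called higher numbered 1 without either day-3 library. Calls ended without stem cell replicate 1 for Egr2 (adjusted p = 0.0921) and without stem cell replicate 2 for Egr2 (adjusted p = 0.0547). Further calls ended with no filter on low values for Egr2 (adjusted p = 0.0510).

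Some inflammatory and stress genes rose, and their levels differed between the induced replicates. Of 14 NF-kB and chemokine genes 6 rose, 3 of the 14 having passed the filter only through the induced libraries. The chemokine gene Cxcl1 read 1.67 and 7.96 FPKM in stem cells and 96.3 and 803 FPKM in induced spermatocytes (log2 change of 5.84, SE 1.11, adjusted p = 0.00566), and Cxcl5 0.0709 and 2.64 FPKM and 31.3 and 26.7 FPKM. Of 16 heat shock and chaperone genes 3 rose and 1 fell. Hspb1 rose from 3.34 and 4.64 FPKM to 110.5 and 491 FPKM and Hspa5, the endoplasmic reticulum chaperone, from 214 and 224 FPKM to 551 and 960.4 FPKM. In the integrated stress response 7 of 18 genes rose, Nupr1 most (2.36 and 18.3 to 244 and 237 FPKM), and 6 fell, among them the serine synthesis gene Phgdh (204 and 207 to 28.4 and 96.1 FPKM) and the amino acid transporter gene Slc7a5 (182 and 178 to 33.9 and 73.2 FPKM). Of 17 interferon response genes 3 rose and 2 fell. The heat shock and interferon shares called higher were below the 26.3% of all tested genes. In either direction 72.2% of the integrated stress list and 42.9% of the NF-kB list were called, against 51.6% over all tested genes. NF-kB and chemokine genes called higher numbered 3 without stem cell replicate 1 and 10 without induced spermatocyte replicate 1, and those called lower numbered 1 without stem cell replicate 1. Heat shock genes called higher numbered 8 without induced spermatocyte replicate 1, and those called lower numbered 0 without either stem cell library and 2 without induced spermatocyte replicate 2. Integrated stress genes called lower numbered 3 without either stem cell library. Interferon genes called higher numbered 1 without stem cell replicate 1, and those called lower numbered 1 without stem cell replicate 2 or induced spermatocyte replicate 1 and 5 without induced spermatocyte replicate 2. Significance was lost without stem cell replicate 1 for Phgdh (adjusted p = 0.0592) and without stem cell replicate 2 for Phgdh (adjusted p = 0.0581).

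Most cholesterol synthesis genes fell, and glycolysis genes went both ways. Of 22 cholesterol synthesis genes 16 fell and 1, Ebp, rose, with a median log2 change of -0.88. Cholesterol genes called higher numbered 2 without either day-3 library or induced spermatocyte replicate 1. Their regulator Srebf2 fell from 133 and 137 FPKM to 31.2 and 50.8 FPKM (log2 change of -1.73, SE 0.22, adjusted p = 0.00153) and Fdps, the most abundant member, from 211 and 259 FPKM to 58.9 and 97.7 FPKM. In glycolysis 7 of 21 genes rose and 5 fell, near the 26.3% and 25.3% of all tested genes. The lactate dehydrogenase genes Ldhb (17.7 and 14.8 to 234 and 249 FPKM) and Ldha (29.3 and 32.3 to 71.3 and 100.00 FPKM) and Pfkl (1.56 and 2.13 to 19.5 and 24.3 FPKM) rose. Aldoc (31.8 and 35.9 to 1.99 and 6.54 FPKM) and Gpi1 (262 and 241 to 89.3 and 127 FPKM) fell, and Gapdh was not called (929 and 878 against 799 and 957 FPKM). Glycolysis genes called lower numbered 2 without induced spermatocyte replicate 1, 3 without either stem cell library and 8 without induced spermatocyte replicate 2. 

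With small RNA genes left out, the 8 most abundant genes of the stem cells were Eef1a1 and 7 ribosomal protein genes, and those of the induced spermatocytes also held Hspa8, Ppia and Tpt1p. Eef1a1, the elongation factor, led both groups in that ranking with 3701 and 3653 FPKM in stem cells and 3473 and 4192 FPKM in induced spermatocytes. Of 81 ribosomal protein genes 8 fell and 2 rose, 12.3% called in all against 51.6% over all tested genes. Replicate 2 was higher than replicate 1 of the induced cells for 79 of them. Of 38 proteasome genes 10 fell and none rose, beside 25.3% lower and 26.3% higher over all tested genes. Of 74 oxidative phosphorylation genes 14 rose and 10 fell, 32.4% called in all against 51.6% over all tested genes. Ndufa1 rose most (62.9 and 65.0 to 312 and 185 FPKM). Ribosomal protein genes called higher numbered 0 without stem cell replicate 1 and 4 without induced spermatocyte replicate 1, and those called lower numbered 1 without either stem cell library, 3 without induced spermatocyte replicate 1 and 28 without induced spermatocyte replicate 2. Proteasome genes called higher numbered 1 without day-3 replicate 2 and 2 without induced spermatocyte replicate 2, and those called lower numbered 1 without stem cell replicate 2 and 3 without stem cell replicate 1 or induced spermatocyte replicate 1. Oxidative phosphorylation genes called higher numbered 5 without either stem cell library and 8 without induced spermatocyte replicate 1, and those called lower numbered 1 without stem cell replicate 2, 2 without stem cell replicate 1 and 6 without induced spermatocyte replicate 1. The small nucleolar RNA gene Snora70 was listed at 0 and 0 FPKM in stem cells, at 0 and 0 FPKM on day 3 and at 4088 and 6821 FPKM in induced spermatocytes. It was left out of the rankings with the other small RNA genes and counts among the X-linked rises. Its value is uncertain, and the cause of this difference was not tested.

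Developmental gene families went different ways. Of 39 Hox genes 9 were tested and 7 fell, Hoxb6 most (26.0 and 26.1 to 0.437 and 2.90 FPKM). Of 20 tested Rhox genes, X-linked homeobox genes of reproductive tissue, 7 rose and 1 fell. Only through the induced libraries 4 of the 20 passed the filter, and 2 only through the stem cells. The Rhox3 copies such as Rhox3a (1.19 and 1.07 to 15.3 and 6.17 FPKM) are near-identical and their separate values are uncertain. Among imprinted genes Peg10 (4.89 and 5.01 to 56.2 and 54.8 FPKM) and Sgce (1.59 and 2.19 to 26.4 and 29.7 FPKM) rose, and Igf2 (28.4 and 68.9 to 3.67 and 5.63 FPKM) and H19 (37.7 and 101.3 to 3.58 and 13.9 FPKM) fell. Of 30 collagen genes 15 rose, led by the basement membrane chains Col4a5 (0.260 and 0.505 to 32.4 and 32.0 FPKM) and Col4a1 (7.57 and 13.7 to 167 and 155 FPKM), and 7 fell, 9 of those tested having passed the filter only through the induced libraries. Among the falls were Col6a1 and Col6a2. The collagen, Sertoli and peritubular genes rose in the same libraries, and the share of each cell type was not tested. Of 14 tested axoneme genes, used in the later sperm tail, 1 rose (Rsph1, 1.08 and 0.686 to 4.65 and 4.02 FPKM) and 2 fell. In either direction 21.4% of the axoneme list and 40% of the Rhox list were called, against 51.6% over all tested genes. Rhox genes called higher numbered 3 without induced spermatocyte replicate 1, and those called lower numbered 0 without stem cell replicate 1 or either day-3 library and 3 without induced spermatocyte replicate 1. Collagen genes called lower numbered 4 without stem cell replicate 2. Axoneme genes called lower numbered 1 without stem cell replicate 1 or induced spermatocyte replicate 1. The call was lost without stem cell replicate 2 for H19 (adjusted p = 0.0509).

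The 2 induced spermatocyte libraries differed in level across whole lists. Replicate 1 was higher than replicate 2 for 10 of 12 synaptonemal and axis genes, 9 of 9 break formation genes, 22 of 28 strand exchange genes and 12 of 14 crossover genes. Replicate 2 was higher for 25 of 31 stem cell genes, all 18 immediate early genes, 15 of 16 heat shock genes and 13 of 14 NF-kB genes. Over all 12588 tested genes replicate 1 was higher for 6703 and replicate 2 for 5879. The heat-inducible Hspa1a, chosen after its values were seen, read 5.28 and 439.5 FPKM in the 2 replicates and 2.64 and 2.85 FPKM in stem cells, and was not called (adjusted p = 0.0941). The median difference, replicate 2 minus replicate 1, was 1.37 on the log2 scale for stem cell genes and -0.57 for synaptonemal genes. A difference between single libraries has no test here.

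**Figure D5:**
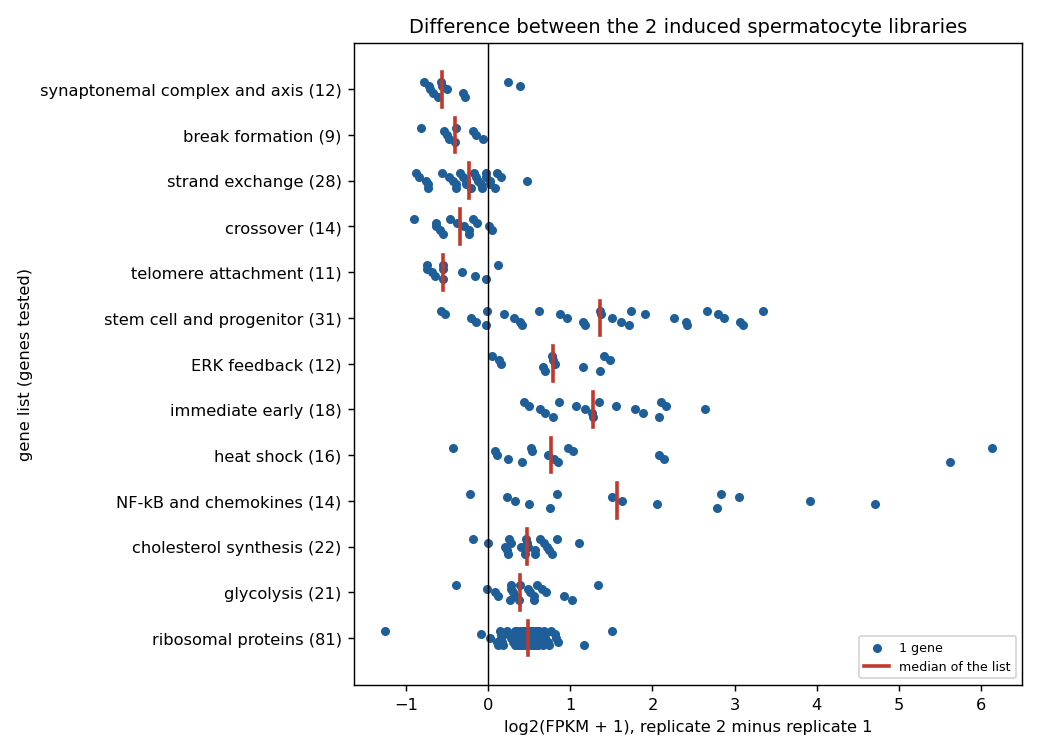
Difference between the 2 induced spermatocyte libraries, replicate 2 minus replicate 1 in log2(FPKM + 1), for every tested gene of 13 lists, with a red bar at each list's median. Meiotic lists lie mostly below 0, and stem cell, immediate early, heat shock, NF-kB and ribosomal protein lists mostly above.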

How the data were processed

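RNA of 12 libraries was sequenced on an Illumina HiSeq 2000, per the labels' protocols. The deposited files hold 1 FPKM value per gene symbol, which the authors made with TopHat2 2.0.6 and Cuffdiff on mm9, per the submitters' processing notes. The version of Cuffdiff, like the annotation, is not given in the sources used here. FPKM values carry no counts, so no count test was run and absolute depth is unknown. Values of the 6 induction libraries were set on the log2(FPKM + 1) scale, genes were kept where the 4 stem cell and induced spermatocyte libraries averaged 1 FPKM or more, and limma 3.58.1 in R 4.3.3 was fitted with group as the factor and a variance trend, with 3 residual degrees of freedom. P-values are 2-sided and Benjamini-Hochberg adjusted, and they measure the spread between the 2 libraries of a group. An exact permutation test of 2 against 2 libraries cannot go below p = 0.333. The script was tested on simulated data.

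Named genes were the 12 largest rises and falls with small RNA genes and unnamed gene models left out, members of the germ cell lists, up to 4 called genes in each direction and the most abundant member of the other lists, the most abundant genes, and genes off in 1 group and on in the other. The gene lists and their members were chosen with earlier results of these data known. Lists are described by counts and medians, with no set test. Gene symbols (98.9% of 22549) were matched to RefSeq GRCm38 for chromosomes and promoters only, and promoter motifs were searched as exact letters on both strands. The listed genes Meiosin, Top6bl, Ankrd31, Rnf212, Shoc1, Act and Rhox5 had no matching symbol and are not analysed here. Some other list members are counted in their lists and not reported here by name. Alternatives were other pseudocounts, filters, scalings, sets of libraries and a replicate block.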

Additional observations from a re-analysis of the deposited data

How the results depend on the processing

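The counts of genes called, called higher, called lower and changed at least 2-fold stayed within 1.5 times their reported values under a filter at 5 FPKM or none, a pseudocount of 0.1 or 0.5, median-ratio and quantile scaling, no variance trend, a fit on the 4 libraries alone, a fit on all 12, small RNA genes left out and a replicate block. Keeping the highest copy of a symbol gave the reported counts, since each symbol has 1 value per table once repeated lines are removed. Leaving out single libraries gave 3538 to 6331 genes called, 2073 to 3228 higher, 1465 to 3103 lower and 2643 to 3599 changed at least 2-fold. The first 3 counts were lowest without stem cell replicate 1, with 3898 called and 1648 lower without stem cell replicate 2, and the last without induced spermatocyte replicate 1. A group left with 1 library is assumed to vary like the others.

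Quantile normalization moved the median of all genes to -0.13 and the share of calls that were higher from 51% to 42.7%. It turned the log2 change of Eef1a1, not called in the reported fit, to -0.3649 (limma, adjusted p = 0.0132). The cause was not tested. The labels do not say that replicate numbers pair the libraries, and same-numbered libraries deviated together at r = 0.0305 to 0.0685, all under 0.1. With the replicate block 6218 genes were called, 3225 higher and 2993 lower, and the number of named genes that lost a call was 0. Of 178 named genes that were called, 134 kept the call whichever library was left out, and 15 lost it under another setting. The absolute depth is unknown, which limits what can be said of genes near 0.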
